A study of Homo sapiens with 2 samples.

Results

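The genes described here make up the machinery of MHC class I antigen presentation. The list named 9 genes: the class I heavy chains HLA-B and HLA-C, the light chain gene B2M, the peptide transporter genes TAP1 and TAP2, the tapasin genes TAPBP and TAPBPL, and the immunoproteasome subunits PSMB8 and PSMB9. They were found by gene symbol among 24267 probes, and 8 of the 9 had a named probe, 1 probe each. No probe carried the symbol B2M, so its level is not analysed here. All 8 probes had a value on both arrays. The named probes of the table covered 12445 genes in all.

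Total RNA of 2 established human mesothelioma cell lines was measured on 2 arrays of 2 colours, 1 array per comparison. In ACC-MESO1 cells, CD26-depleted cells were set against control cells. In MSTO-211H cells, cells given a pLNCX2 vector carrying CD26 were likewise set against control cells. CD26, the product of DPP4, is a dipeptidyl peptidase of the cell surface. For the depletion the labels name both an siRNA and an shRNA. What the control cells were given is not stated, nor whether the transfected cells were a single clone or a pool. Every value below is the authors' normalized log2 ratio of manipulated over control cells, with each array's probes at a median of 0. With n = 1 array per comparison there is no replicate, no p-value and no SD between samples, and precision is limited by the number of arrays. A log2 ratio of 1 is 2-fold and was the threshold for calling a gene higher or lower. The median over all genes was 0.01 on both arrays.

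The DPP4 probe read -3.92 after depletion and 5.51 after transfection, the directions that the labels give. Markers that define mesothelial cells could not be checked as levels, because a ratio within an array carries no level. Control cells were labelled with Cy5 and manipulated cells with Cy3 on both arrays, with no dye swap. A dye effect of a gene's own would give the same sign on both arrays.

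Class I molecules show peptides from inside the cell to cytotoxic T cells. The proteasome cuts proteins into peptides, and cells exposed to interferon replace its catalytic beta subunits by the immunoproteasome subunits. TAP1 and TAP2 together carry the peptides into the endoplasmic reticulum, where tapasin holds an empty class I molecule to the transporter until a fitting peptide is bound. TAPBPL, also called TAPBPR, edits peptides without binding the transporter. The heavy chain reaches the cell surface paired with the product of B2M. In many tumours the genes of this pathway are weakly expressed and remain inducible by interferon gamma.

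Interferon regulatory factors and NF-kappaB are known activators of class I genes, and the upstream sequences below are shown for letters that match the motifs of these factors. They come from RefSeq (GRCh38.p14), which had promoter windows, from 250 bases before to 50 after a start site, for all 9 genes. Each stretch is 100 bases long, written 5′ to 3′ on the strand of the gene, and ends before the start site. Capitals mark matches to AANNGAAA, the core that interferon regulatory factors recognise, and to GGGNNTTNC, a kappaB form, on either strand. No kappaB match overlapped a match to AANNGAAA in these stretches. HLA-C is shown beside HLA-B because it lacks the kappaB letters, and TAPBPL is shown at the second of its 2 start sites, the one with matches upstream.
HLA-B, chr6:31357280-31357379, minus strand: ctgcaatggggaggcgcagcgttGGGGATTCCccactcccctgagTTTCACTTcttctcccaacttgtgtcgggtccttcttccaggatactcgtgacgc
HLA-C, chr6:31272193-31272292, minus strand: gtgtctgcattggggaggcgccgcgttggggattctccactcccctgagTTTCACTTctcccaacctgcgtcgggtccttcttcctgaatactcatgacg
TAP1, chr6:32853755-32853854, minus strand: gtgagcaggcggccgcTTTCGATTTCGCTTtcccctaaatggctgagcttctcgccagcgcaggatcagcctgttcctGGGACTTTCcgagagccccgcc
TAP2, chr6:32838740-32838839, minus strand: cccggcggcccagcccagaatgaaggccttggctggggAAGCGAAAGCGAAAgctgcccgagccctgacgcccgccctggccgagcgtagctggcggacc
TAPBP, chr6:33314079-33314178, minus strand: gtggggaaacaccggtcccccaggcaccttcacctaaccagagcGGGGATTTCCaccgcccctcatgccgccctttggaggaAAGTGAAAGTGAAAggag
TAPBPL, chr12:6451942-6452041, plus strand: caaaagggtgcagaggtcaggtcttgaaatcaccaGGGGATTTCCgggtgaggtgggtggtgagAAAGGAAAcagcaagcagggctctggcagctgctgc

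Over whole windows, AANNGAAA was found for 7 of the 8 measured genes, PSMB9 being the exception, against 24.3% of the 9945 genes of the table that had a promoter window. The kappaB letters were found for 5 of the 8, namely HLA-B, TAP1, TAPBP, TAPBPL and PSMB8, against 21.8%. For PSMB8 all matches were in the window of the second of its 2 start sites, and the first window had none. Its AANNGAAA matches lie across that second start site. In TAP1, TAP2, TAPBP, PSMB8 and B2M, AANNGAAA matches form an overlapping tandem pair. The upstream 250 bases of HLA-B and HLA-C were identical at 91.9% of 246 aligned positions. TAP1 and PSMB9 are read in opposite directions. The nearer of 2 TAP1 start sites lies 488 bases from that of PSMB9, so a single stretch of DNA lies upstream of both. The TAP1 stretch above belongs to this nearer site. The other site lies 1431 bases from that of PSMB9, and its window held no match to either motif. A match describes these letters and was not measured as a binding site. The letters were chosen after the sequences of these genes were seen, so the shares above do not test for enrichment.

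After CD26 depletion, all 8 measured genes were above 0 in ACC-MESO1 cells, and 6 of them were at least 2-fold higher, in a background where 3.31% of 10347 genes passed 2-fold upwards and 1.56% downwards. For being above 0, the background was 51.3%. The members were chosen with earlier results of these data known, so these contrasts describe the genes and are not a test. With the array centred on ribosomal protein genes, 7 of the 8 were at least 2-fold higher, where 8.24% of genes passed 2-fold upwards and 0.406% downwards. As deposited, the median of the 8 was 1.21. They ran from 0.56 for TAPBP to 2.27 for HLA-B. All 8 exceeded 0.42, the pooled SD among different probes of a gene on this array, which came from 566 genes with several probes. Of all genes, 16.2% were higher past that value and 12.8% lower. This SD holds differences between probes within 1 array and no variation between cultures or arrays, so passing it is not a test. With 1 probe per gene, none of the 8 could be checked by a second probe.

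The heavy chains, which form the peptide groove and carry the allele differences, had the highest values. HLA-B was at 2.27 on the log2 scale, which is 4.84-fold higher in depleted than in control cells, and ranked 20th from the highest of 10347 genes. HLA-C followed at 1.85, or 3.62-fold, at rank 51. The other heavy chain genes with a probe went the same way, with the non-classical HLA-F at 1.60 and HLA-E, the ligand of the NK cell receptor NKG2A, at 1.44. Class I loci of this family are close in sequence. Probe sequences were not used here, so signal from one locus cannot be told apart from signal of another. A pair of class I pseudogenes, looked up after the other values were seen, differed. The HLA-H probe was at 1.49, and the 3 probes of HLA-J were at -0.12, -0.08 and 0.36.

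Among the genes that supply and load peptide, TAP1 had a log2 ratio of 1.05 and TAP2 0.75 in depleted cells, or 2.07-fold and 1.68-fold over control cells. TAP1 was thus just past the threshold and TAP2 short of it, and their difference of 0.29 was smaller than the pooled probe SD. TAPBPL was at 1.27 (2.42-fold), and TAPBP at 0.56 (1.48-fold) was the lowest of the 8. TAPBPL lies on chromosome 12, away from the other 7 measured genes on chromosome 6. PSMB8 was at 1.25 (2.38-fold) and PSMB9 at 1.17 (2.25-fold), and these neighbours of TAP1 in the MHC differed by 0.08 on the log2 scale.

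**Figure D1:**
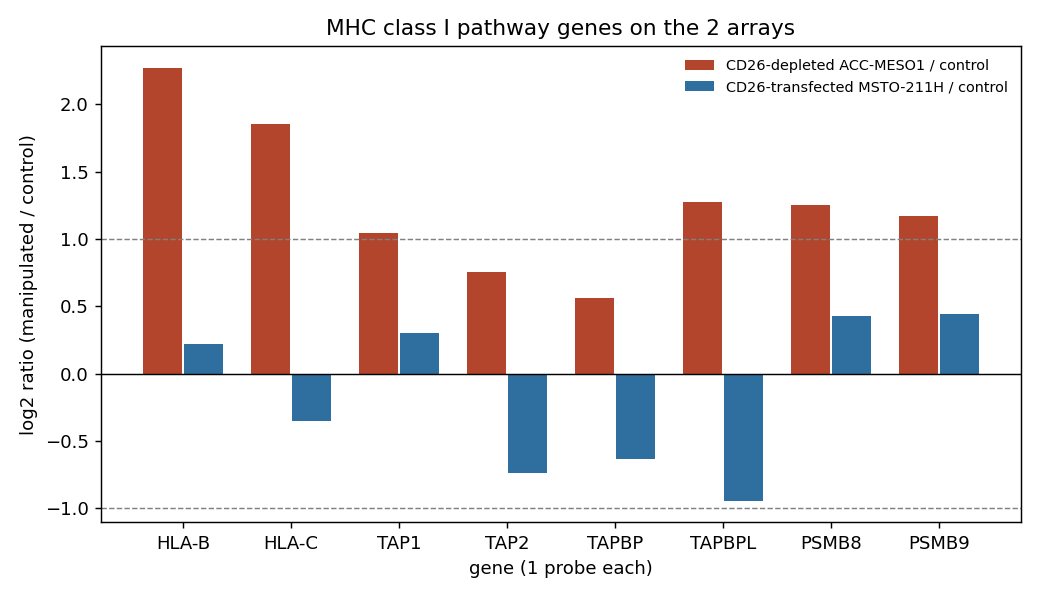
Log2 ratio of manipulated over control cells for the 8 measured genes, with a bar for the CD26-depleted ACC-MESO1 array on the left and one for the CD26-transfected MSTO-211H array on the right of each pair, and dashed lines at 2-fold. All 8 depletion bars lie above 0, from 0.56 to 2.27, while the transfection bars lie on both sides of 0, from -0.94 to 0.44.

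After CD26 transfection, none of the 8 genes was 2-fold away from control in MSTO-211H cells, where 4.09% of 9359 genes passed 2-fold upwards and 1.37% downwards. There were 4 genes above 0 and 4 below, against a background of 50.7% above 0, with a median of -0.07. The range was from -0.94 for TAPBPL to 0.44 for PSMB9. Only TAPBPL, TAP2 and TAPBP exceeded 0.45, the pooled SD among probes of a gene on this array, which came from 471 genes, and all 3 were lower in transfected cells. Of all genes, 11.5% were lower past that value and 15.1% higher. This depended on the centring. Centred on ribosomal protein genes, with 7.32% of genes past 2-fold upwards and 0.566% downwards, TAPBPL (-0.69) and TAP2 (-0.49) still exceeded that SD and TAPBP (-0.38) did not. With that centring HLA-B, TAP1, PSMB8 and PSMB9 exceeded it on the other side, at 0.47 to 0.69.

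TAPBPL was at -0.94 in transfected cells, or 1.92-fold lower than in control cells, with 98.3% of genes at or above it. TAP2 was at -0.74 (1.67-fold lower) and TAPBP at -0.63 (1.55-fold lower). TAP1, the partner of TAP2 in the same transporter, was at 0.30, and so the 2 subunits lay on opposite sides of 0 and 1.04 apart. The immunoproteasome subunits had log2 ratios of 0.43 for PSMB8 and 0.44 for PSMB9, each short of the probe SD. HLA-B was at 0.22 and HLA-C at -0.35. HLA-E had -0.05 and HLA-F -0.44, the HLA-H probe 0.02 and the 3 HLA-J probes -0.09, -0.08 and -0.06.

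**Figure D2:**
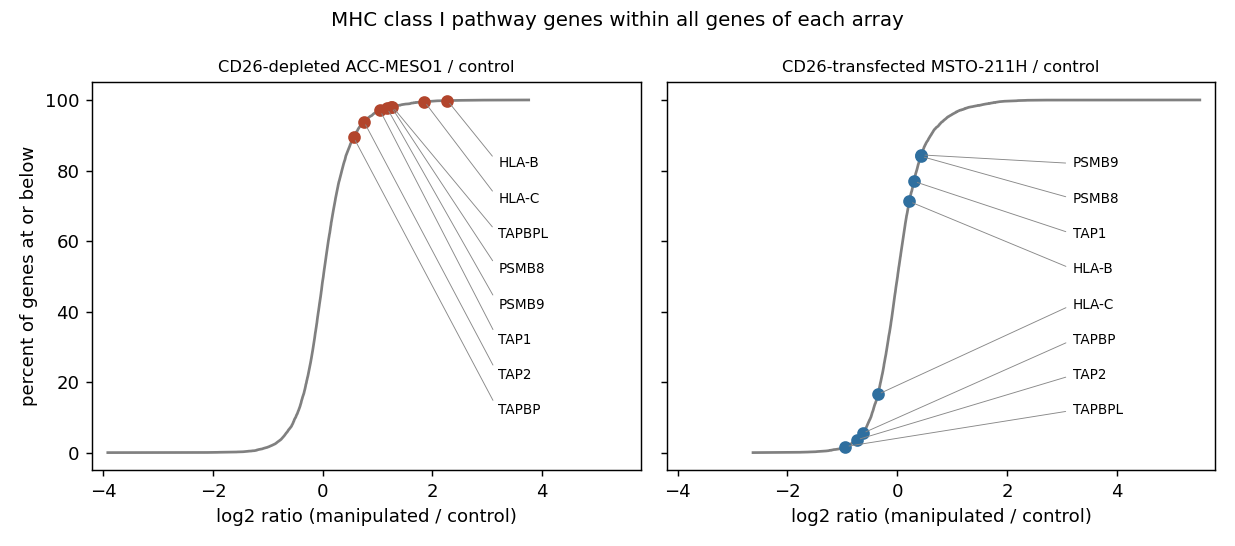
Cumulative percent of all genes (vertical axis) against the log2 ratio of manipulated over control cells, with the depletion array on the left (10347 genes) and the transfection array on the right (9359 genes). Points mark the 8 measured class I pathway genes. On the depletion array they all lie on the upper part of the curve, and on the transfection array they fall into 4 above 0 and 4 below.

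The design lowered CD26 in one cell line and raised it in another, so a gene that followed CD26 negatively would be higher on the depletion array and lower on the transfection array. HLA-C, TAP2, TAPBP and TAPBPL had this pair of signs, 4 of the 8 genes, against 24% of the 8956 genes with a value on both arrays. The other 4, HLA-B, TAP1, PSMB8 and PSMB9, were above 0 on both arrays, against 26.6%. All 8 were above 0 after depletion, so these shares of all genes are not a like background. Among genes above 0 after depletion and measured on both arrays, 2151 were below 0 and 2382 above 0 after transfection. The split of the 8 into 4 and 4 was close to that. TAPBPL (1.27 and -0.94), TAP2 (0.75 and -0.74) and TAPBP (0.56 and -0.63) passed the probe SD on both arrays in opposite directions, as deposited. Of all 8956 genes, 134 did so with the same signs. None of the 8 was 2-fold or more in opposite directions, which follows from none being 2-fold away from control after transfection. The share of all genes that were was not counted. The cell lines differ as well as the manipulation, so the line and the direction of the CD26 change cannot be told apart. For the 4 genes above 0 on both arrays, the part of a dye effect was not tested.

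Over the pair of values, the genes nearest to the median pair of the 8 (1.21 and -0.07) by Euclidean distance were TTLL9 (1.21 and -0.04), MYADM (1.18 and -0.05), CABP1 (1.19 and -0.12), ITGA5 (1.29 and -0.07) and FOXJ2 (1.11 and -0.10). Likeness over 2 arrays says little, and 43 of 8948 other genes lay within 0.25 of that point.

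The constitutive catalytic subunits of the proteasome were all short of 2-fold. After depletion the side of 0 depended on the centring for PSMB5 and PSMB7, while PSMB6 was below 0 with either centring. PSMB5, the catalytic subunit that PSMB8 replaces, was at -0.15 in depleted cells and at 0.20 in transfected cells. PSMB6, which PSMB9 replaces, had -0.51 and -0.20. The third immunoproteasome subunit, PSMB10, had 3 probes that did not agree, at -0.67, 0.39 and 1.52 in depleted cells and at -0.24, 0.40 and -0.64 in transfected cells. PSMB7, its constitutive counterpart, was at -0.02 and -0.03. With ribosomal centring the depletion values were 0.20 for PSMB5, -0.16 for PSMB6 and 0.34 for PSMB7. Of 11 measured other beta and activator subunits none was 2-fold away from control on either array, with medians of -0.02 and -0.09. PSME1 (0.62 and 0.28) and PSME2 (0.60 and 0.23), which form the interferon-inducible PA28 cap, were the highest after depletion. POMP, the assembly factor of the proteasome, was the lowest after transfection at -0.48. The alpha subunits had none past 2-fold either, among 7 after depletion (median -0.08) and 6 after transfection (median -0.25). They ran from PSMA8 (0.73, or 1.08 with ribosomal centring) to PSMA2 (-0.69) in depleted cells, and from PSMA3 (0.21) to PSMA2 (-0.56) in transfected cells.

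Chaperones and aminopeptidases of the endoplasmic reticulum fold class I molecules and trim their peptides. Of 7 measured, none was 2-fold away from control on either array, with medians of -0.10 after depletion and 0.04 after transfection. ERAP1, which trims peptides to class I length, stood highest at 0.94 in depleted cells (1.29, past 2-fold, with ribosomal centring) and was at -0.18 in transfected cells. The lectin chaperones had -0.11 and 0.22 for CALR and -0.20 and -0.07 for CANX, the lowest of the list after depletion. LNPEP, an endosomal aminopeptidase, was the highest after transfection at 0.46 and PRKCSH the lowest at -0.20. The 8 other peptidases, among them the cytosolic TPP2 and THOP1, which can trim or destroy peptides before transport, and HM13, the signal peptide peptidase of the endoplasmic reticulum, had none past 2-fold and medians of -0.16 and -0.08. They ran from IDE (-0.78) to HM13 (0.11) in depleted cells and from NPEPPS (-0.70) to BLMH (0.84, or 1.09 with ribosomal centring) in transfected cells.

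**Figure D3:**
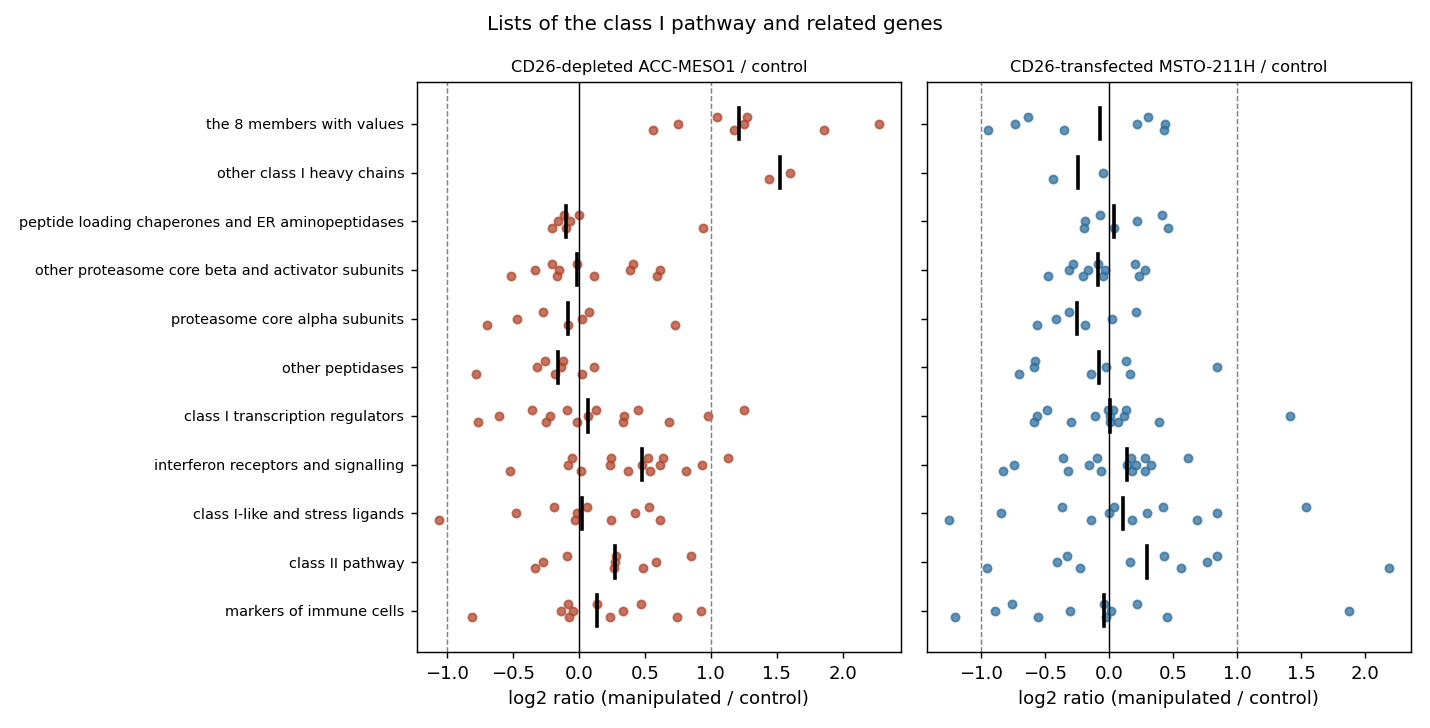
Log2 ratio of manipulated over control cells for each gene (points) of the 8 measured members and of 10 lists of related genes, with the depletion array on the left and the transfection array on the right. Black bars are list medians and dashed lines mark 2-fold. On the depletion array the medians of the members (1.21) and the other heavy chains (1.52) lie to the right of the medians of the other lists. Those run from -0.16 to 0.48. Single genes overlap, with RELB (1.25) and JAK1 (1.13) to the right of TAPBP (0.56), TAP2 (0.75) and TAP1 (1.05).

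The list of class I transcription regulators held interferon regulatory factors, NF-kappaB subunits and the factors that bind the class I promoter. Of 15 measured after depletion, 8 were above 0, against 51.3% of all genes, and the list median was 0.07. RELB, an NF-kappaB subunit, was the gene past 2-fold, at 1.25. Those below 0 included RFX5 (-0.61), NFYC (-0.36) and RELA (-0.25). USF1 was at 0.98, IRF1, an interferon-induced activator of class I and immunoproteasome genes, at 0.69, NFKB1 at 0.45, and RFXAP, a subunit of the RFX complex, was lowest at -0.77. After transfection, RELA was the gene past 2-fold of 14, at 1.42, and IRF1 was lowest at -0.58, while RELB was at -0.29. Interferon receptors and their signalling genes had a median of 0.48 over 15 genes after depletion, with 12 above 0, against 51.3% of all genes. JAK1, the kinase shared by the type I and type II interferon receptors, was past 2-fold at 1.13. USP18 (0.94), IFNAR1 (0.81) and IRF9 (0.62) fell short of it, and IFNB1 was lowest at -0.53. Ribosomal centring raised every depletion value by 0.35 and put 8.24% of all genes past 2-fold upwards, against 3.31% as deposited. With that centring USF1 (1.33), IRF1 (1.04), USP18 (1.29) and IFNAR1 (1.16) were past 2-fold as well. After transfection the median was 0.14 over 15 genes and none was past 2-fold, from SOCS1, a feedback inhibitor of JAK kinases, at -0.83 to USP18 at 0.62. The IFNG probe had no value on either array.

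Class I-like molecules and stress ligands, which share the class I fold, had medians of 0.02 over 10 genes after depletion and 0.11 over 12 after transfection. HFE, the iron regulator, was at least 2-fold lower in depleted cells, with 3 probes at -1.32, -1.12 and -0.74 and a mean of -1.06. With ribosomal centring the mean was -0.71 and no longer past 2-fold. HFE was also below 0 in transfected cells, at -0.84, from the probe that read -0.74 in depleted cells, the only one with a value there. RAET1L was highest in depleted cells at 0.61. In transfected cells PROCR was at 1.54 and CD1D, which presents lipids, at -1.25. The NK cell ligands MICA (0.24 and 0.43) and MICB (-0.03 and 0.18) lie near HLA-B in the genome.

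Class II molecules present peptides of endocytosed proteins and do not use TAP. Of 9 class II pathway genes measured after depletion none was past 2-fold and the median was 0.28, from HLA-DRB1 (-0.33) to the invariant chain CD74 (0.85, or 1.20 with ribosomal centring). The 2 probes of HLA-DPB1 were at -0.10 and 1.27. CIITA, the class II master regulator, was at -0.09 in depleted cells and -0.23 in transfected cells. After transfection the median was 0.30 over 10 genes, and HLA-DOB (2.18) was past 2-fold with no value on the depletion array, while HLA-DRB1 was lowest at -0.96. Of 21 immune cell marker genes with a probe, 11 had a value on each array, with medians of 0.13 and -0.04. PTPRC, which defines leukocytes, had no value on either array. None of these markers was past 2-fold in depleted cells, where CSF1R (0.93, or 1.28 with ribosomal centring) was the highest and CD3G (-0.81) the lowest. In transfected cells CD3E (1.88) was at least 2-fold higher and CD83 (-1.20, or -0.95 with ribosomal centring) at least 2-fold lower as deposited.

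HLA-B, HLA-C, TAP1, TAP2, TAPBP, PSMB8 and PSMB9 all lie in the MHC on chromosome 6, among many genes with other roles. In the annotation order from HLA-C to TAPBP, 62 other genes had a value after depletion. Their median was 0.12, with 2 past 2-fold upwards and none downwards, against 3.31% and 1.56% of all genes. The neighbours past 2-fold upwards were thus near the share of all genes. These 2 neighbours were the complement gene C4A (2.42), which has a near-identical copy, C4B, and the long non-coding RNA gene HCP5 (1.07), which lies near HLA-B. The 7 members in that interval had a median of 1.17, with 5 at least 2-fold higher. In the cluster of adjacent genes TAP2, PSMB8, TAP1 and PSMB9, values in depleted cells were 0.75, 1.25, 1.05 and 1.17. HLA-DMB, the next gene in order, was at 0.48, and 7 class II genes of the interval had a median of -0.08. After transfection, 55 neighbours had a median of -0.06, with HLA-DOB (2.18) higher and LY6G6C (-1.05) lower past 2-fold. Of all genes, 4.09% were higher and 1.37% lower past 2-fold on that array. The 7 members had a median of 0.22. In transfected cells TAP2 (-0.74) stood below its neighbours PSMB8 (0.43), TAP1 (0.30) and PSMB9 (0.44).

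**Figure D4:**
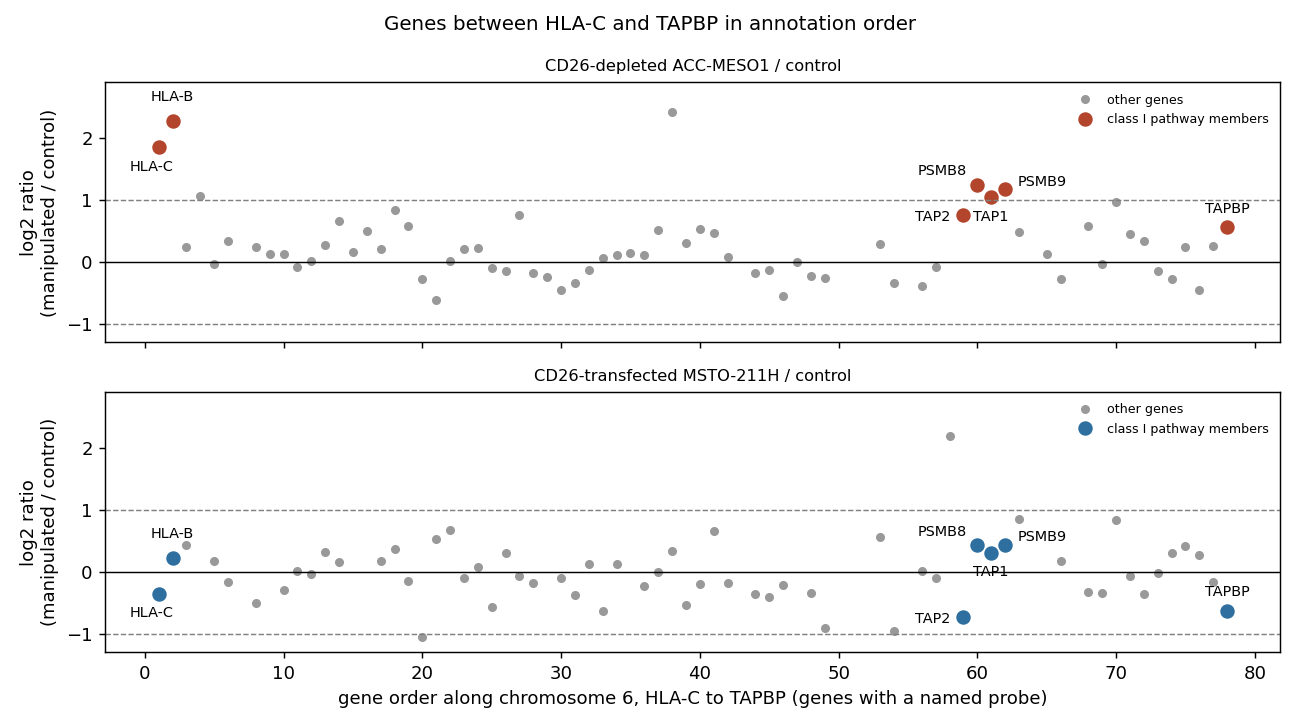
Log2 ratio of manipulated over control cells for genes in their order along chromosome 6 from HLA-C to TAPBP, with the depletion array above and the transfection array below. Coloured points are the 7 members in the interval, grey points the other genes with a named probe, and dashed lines mark 2-fold. On the depletion array the members stand above most of the grey points (medians 1.17 and 0.12).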

How the data were processed

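TRIZOL extraction, amino allyl amplification and coupling to Cy dyes are recorded in the labels' protocols. Per the labels, each deposited value is a normalized log2 ratio, manipulated over control cells, which the authors computed for each 2-colour array. How background was corrected, how the arrays were normalized and scanned, and when a probe was left without a value: none of these is given in the sources used here. Of 24267 probes, 19622 were measured after depletion and 17737 after transfection. By the platform annotation, 13395 probes had 1 gene symbol, 0 had several and 10872 had none. RefSeq (GRCh38.p14) served to update symbols, with 10076 current, 2285 updated through a synonym and 113 ambiguous ones kept. Probes of a gene were averaged with pandas 2.3.3 in Python 3.11.15, and the averaging and counting were tested on simulated data.

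The call was a log2 ratio of 1 or more in either direction, with no test. Named genes were all members, DPP4, of each list the genes past 2-fold and its extremes, the 5 genes nearest in both values, and genes past 2-fold between HLA-C and TAPBP. Further genes were named for their role, after their values were seen. The members and lists were chosen with earlier results of these data known, and the motif letters after the sequences were seen. Alternatives were another centring, common spread, other probe rules, thresholds of 0.5 and 1.5, members measured on both arrays and, chosen after seeing the data, HLA-B and HLA-C averaged as 1.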

Additional observations from a re-analysis of the deposited data

How the results depend on the processing

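No paired analysis was possible because each comparison had 1 array. With 1 probe per member, the probe rules could not move any member's value, and the common spread multiplied the arrays by 1.02 and 0.985, so these alternatives say nothing about stability. The ribosomal reference was the median of 32 measured genes of 73 listed. They ran from -1.36 (RPLP0) to 0.33 (RPS19) after depletion and from -1.46 (RPLP0) to 0.26 (RPL34) after transfection. Centring on ribosomal protein genes raised all values by 0.35 after depletion and 0.25 after transfection, changing no member's sign. It put 7 members past 2-fold after depletion, and gave members' medians of 1.56 and 0.18, the second on the other side of 0. At a threshold of 1.5, 2 members were called after depletion (1.21% of genes higher), and at 0.5, 3 after transfection, all lower (9.4% of genes lower). With HLA-B and HLA-C averaged as 1, 5 of 7 were past 2-fold after depletion. Of 95 genes of the other lists, 5 were past 2-fold after depletion as deposited (4.86% of all genes), 13 with ribosomal centring (8.65%) and 8 with the probe of largest ratio (5.32%). As deposited 4 were higher and 1 lower (3.31% and 1.56% of all genes). With ribosomal centring 13 were higher and 0 lower (8.24% and 0.406%), and with the probe of largest ratio 7 and 1. The heavy chains HLA-E and HLA-F were among those higher. Signal over background was not used here, so dim probes could not be told from bright ones.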
